A study of Mus musculus with 6 samples.

Results

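Type I interferon-stimulated genes are genes whose transcription rises when a cell senses type I interferon, and 39 well-known ones were followed here. The list was drawn up with earlier results of these data known, so its counts are a description and not independent evidence. Their levels were read from arrays of plasmacytoid dendritic cells (pDCs), immune cells that release large amounts of type I interferon on meeting viral nucleic acids. Of the 39, 37 had a probe set annotated to that symbol alone, out of 19937 genes measured in this way. The 2 others were Isg15, whose probe set is also annotated to Gm9706, and Ifi44, for which no probe set is listed. A gene with several probe sets was represented by the brightest of them by 6-array mean, which among the members concerned Ifitm1 with 2 and Ifitm2 with 3. The values were deposited as log2 levels, so a difference of 1 is a doubling on the array.

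The series compared pDCs from IRF8-deficient mice (KO, 3 arrays) with pDCs from wild-type mice (WT, 3 arrays). All 6 samples were splenic cells gated as positive for B220 and SiglecH, and the RNA went through NuGen PICO SL amplification before Affymetrix labelling. No treatment, strain, allele, age or pooling of animals is given in the labels, nor whether the samples came from separate mice, so p-values measure the spread between these arrays, which may be technical. The targeted gene itself, Irf8, measured 10.15, 10.49 and 10.79 in KO replicates 1 to 3, against 10.21, 9.97 and 10.24 in WT replicates 1 to 3 (difference 0.34, limma adjusted p = 0.425). Irf8 was thus not lower in the libraries labelled KO. The labels do not say which stretch of the gene was altered, and probes lying elsewhere cannot test the genotype, so KO and WT below mean the arrays so labelled.

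In the textbook pathway, type I interferon binds the receptor IFNAR, the kinases JAK1 and TYK2 activate STAT2, and complexes that hold STAT2 and IRF9 bind the interferon-stimulated response element (ISRE) in promoters. The induced proteins sense, cut, trap or modify foreign nucleic acids and proteins, and some of them damp the signal again. IRF8 belongs to the same family as IRF9, and with ETS factors such as PU.1 it binds composite elements that resemble part of an ISRE.

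Interferon-stimulated genes were higher in KO in many but not all members. Of 37 measured, 14 rose, 0 fell and 23 passed in neither direction by limma at an adjusted p of 0.05 over all genes. Over all genes, 2.3% were higher and 2.08% lower at that threshold, together 4.38%, against 37.8% and 0% of the members. Rises of at least 2-fold were called in 10 members (27%), beside 1.32% of all genes. At an unadjusted p below 0.05, 19 members were higher, beside 7.58% of all genes, and 2 were lower, beside 8.49%. The median difference of the members was 0.48, beside -0.04 over all genes, and 30 of the 37 differences were positive, beside 41.8% of all genes, while 7 were negative, beside 58.2%. All 3 KO arrays lay above all 3 WT arrays in 20 members, beside 8.71% of all genes, and below them in 3 members, beside 11.7% of all genes.

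The sizes of the rises were uneven. Rtp4 was 53.0-fold higher, 4 members lay between 8.14-fold and 9.27-fold, and the other 9 that rose lay between 1.61-fold and 2.94-fold. At least 8-fold rises numbered 29 over all genes (0.145%), and the 5 members among them were 17.2% of those 29 and 13.5% of the measured members. Rtp4 ranked at place 2 of all genes by difference, Ifit3 at 23, Ifit1 at 25, Ddx60 at 29 and Ddx58 at 32. An unequal-variance test per gene called 0 members after adjustment, and only 2 genes higher and 2 lower of all 19937. Its count of 0 thus says little about the members. At an unadjusted p below 0.05 it had 16 members higher and 1 lower, and the share of all genes was not counted. Without WT replicate 2, the count of members that rose was 9, beside 259 of all genes. Leaving out any other single array gave 10 to 15 members, beside 249 to 780 of all genes.

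**Figure D1:**
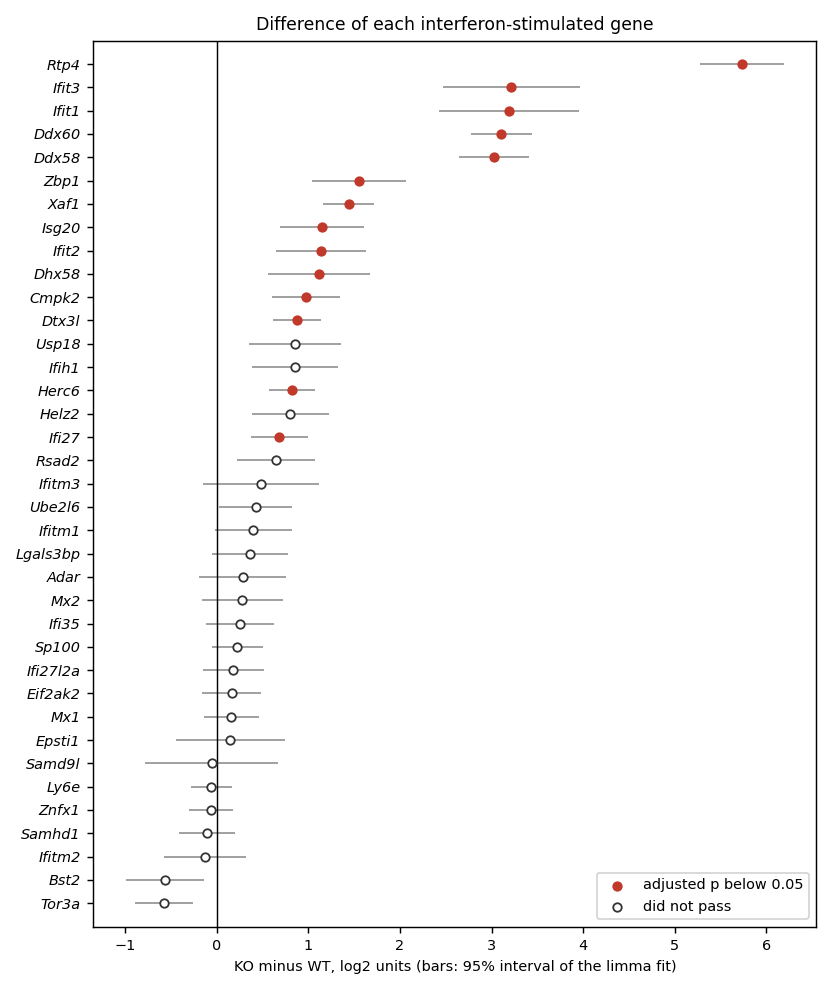
Difference of each of the 37 measured genes between KO and WT, in log2 units on the horizontal axis, ordered from highest to lowest. Lines are 95% intervals of the limma fit and filled points passed the adjusted threshold. Rtp4 stands apart at 5.73, 4 genes follow between 3.03 and 3.21, and most open points have intervals that reach 0.

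**Figure D2:**
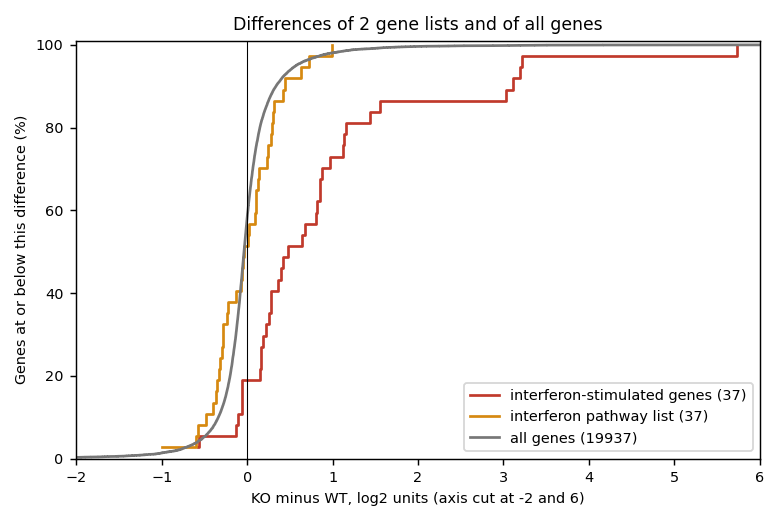
Share of genes at or below each difference between KO and WT (log2 units) for the 37 interferon-stimulated genes, the 37 measured genes of the interferon pathway list and all 19937 genes. The curve of the interferon-stimulated genes lies to the right, with a median of 0.48 against -0.04 for both the pathway list and all genes.

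The ISRE core, taken as GAAA, any 2 bases and GAAA again, was searched on both strands, overlapping matches included, in RefSeq promoter windows of GRCm38.p6, 250 bases before to 50 bases after a transcription start. Of the 39 genes, 29 had a window, and 11 of these 29 held the core. By window, 11 of 36 member windows held it (30.6%), against 3.44% of all 32851 windows. The 3 windows shown are those of the members with the largest rises among members with a window, a group that does not include Rtp4, for which no window was given. Each of the 3 holds the core at 2 places, as do the windows of Bst2 and Ifitm3, and that of Isg15 holds it at 3. Capitals mark the core, which reads as its reverse complement where it lies on the other strand.
Ifit3, chr19:34583279-34583578, plus strand: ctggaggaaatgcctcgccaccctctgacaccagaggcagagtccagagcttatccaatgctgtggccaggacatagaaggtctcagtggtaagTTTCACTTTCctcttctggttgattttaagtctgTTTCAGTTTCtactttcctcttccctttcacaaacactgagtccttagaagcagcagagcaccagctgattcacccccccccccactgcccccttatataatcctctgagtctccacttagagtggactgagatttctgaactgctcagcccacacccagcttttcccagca
Ifit1, chr19:34640639-34640938, plus strand: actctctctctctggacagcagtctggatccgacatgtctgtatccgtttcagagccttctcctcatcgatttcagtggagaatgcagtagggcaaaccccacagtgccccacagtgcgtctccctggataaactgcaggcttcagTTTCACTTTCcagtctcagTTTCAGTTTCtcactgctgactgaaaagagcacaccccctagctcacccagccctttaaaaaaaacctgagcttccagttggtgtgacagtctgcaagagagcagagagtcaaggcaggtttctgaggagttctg
Ddx60, chr8:61927837-61928136, plus strand: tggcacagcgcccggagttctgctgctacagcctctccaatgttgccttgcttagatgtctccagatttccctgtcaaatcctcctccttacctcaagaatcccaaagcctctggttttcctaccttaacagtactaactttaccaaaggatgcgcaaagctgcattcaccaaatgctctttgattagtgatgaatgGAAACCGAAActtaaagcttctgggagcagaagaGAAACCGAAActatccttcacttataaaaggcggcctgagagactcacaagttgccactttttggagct

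The cores are centred at positions -151 and -117 from the start in Ifit3, -99 and -80 in Ifit1, and -48 and -14 in Ddx60. The window of Samd9l, the member with the smallest difference in size, is also shown and holds no match to the ISRE core. Windows of some members that rose lack the core as well, as the counts below give.
Samd9l, chr6:3399522-3399821, minus strand: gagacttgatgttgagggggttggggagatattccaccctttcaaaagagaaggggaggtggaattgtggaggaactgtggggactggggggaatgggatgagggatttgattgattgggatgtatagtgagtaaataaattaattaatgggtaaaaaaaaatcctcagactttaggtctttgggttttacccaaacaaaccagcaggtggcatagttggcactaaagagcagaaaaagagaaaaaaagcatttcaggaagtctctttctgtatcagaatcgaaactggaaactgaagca

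Shorter stretches of the core with its neighbours show that it also stands in windows of members that passed the test and of members that did not. Each is written in the direction in which the core reads.
Ddx58, chr4:40239804-40239833, plus strand: ctggccatagGAAATCGAAActgcctcagg
Ifih1, chr2:62646206-62646233, minus strand: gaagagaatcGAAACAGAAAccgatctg
Rsad2, chr12:26456553-26456582, plus strand: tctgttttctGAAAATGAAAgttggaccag
Eif2ak2, chr17:78882535-78882564, minus strand: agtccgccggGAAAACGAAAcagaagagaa
Bst2, chr8:71537583-71537612, minus strand: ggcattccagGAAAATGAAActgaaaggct

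Of the 14 members that rose, 10 had a window and 4 of them held the core. Of the 23 measured members that did not pass, 17 had a window and 6 of them held it. Composite elements were also counted, with windows that could hold several kinds of element. GGAA, any 2 bases and GAAA stood in 5 of the 29 members with a window (Adar, Dtx3l, Epsti1, Ifi44 and Sp100). By window, that was 6 of 36 member windows (16.7%), against 2.72% of all windows. The opposite order, GAAA, any 2 bases and GGAA, stood in 3 of the 29 members (Ifi35, Ifih1 and Samd9l). By window, that was 3 of 36 (8.33%), against 2.8% of all windows. The STAT motif, TTC and GAA parted by any 3 bases, stood in 8 of the 29 members. By window, that was 8 of 36 (22.2%), against 8.3% of all windows. A match to letters is a description of the sequence and does not show binding.

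All 3 IFIT genes rose. Their protein family includes members that bind viral RNA in the cytoplasm and block its translation. Ifit3 measured 10.90, 10.20 and 10.13 in KO replicates 1 to 3, against 7.80, 6.61 and 7.19 in WT replicates 1 to 3. The 2 groups did not overlap, and the lowest KO array stood more than 2 log2 units above the highest WT array. The difference was 3.21 (SE 0.321, 9.27-fold, limma adjusted p = 0.00193). A near-identical copy of Ifit3 can share its signal.

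Ifit1, which recognises viral RNA that lacks the methyl marks of host caps, measured 9.39, 8.37 and 8.27 in KO replicates 1 to 3, against 5.36, 5.94 and 5.14 in WT replicates 1 to 3. KO replicate 1 was the highest of the 6 arrays for all 3 IFIT genes. The difference of Ifit1 was 3.19 (SE 0.327, 9.13-fold, limma adjusted p = 0.0022). Ifit2 had 7.17, 6.47 and 6.49 in KO, against 5.66, 5.72 and 5.33 in WT, a smaller difference of 1.14 (SE 0.211, adjusted p = 0.0256). Its call was lost when KO replicate 2 or 3 or any 1 WT replicate was left out (highest adjusted p 0.0987). The 3 genes are neighbours on mouse chromosome 19 in RefSeq, with 0 protein-coding genes between Ifit2 and Ifit3 and 3 between Ifit3 and Ifit1.

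Among sensors and enzymes that act on nucleic acids, 4 of 9 rose and 5 passed in neither direction. Ddx58 encodes RIG-I, the sensor of short RNA with a triphosphate end. It measured 8.82, 8.44 and 8.45 in KO replicates 1 to 3, against 5.78, 5.55 and 5.31 in WT replicates 1 to 3, with no overlap between the groups. The difference was 3.03 (SE 0.165, 8.14-fold, limma adjusted p = 0.000126).

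Ddx60, a helicase described as a helper of RIG-I-like receptors, measured 7.47, 7.67 and 7.55 in KO, against 4.35, 4.73 and 4.29 in WT. Its KO arrays lay close together and far above every WT array. The difference was 3.11 log2 units (SE 0.144, limma adjusted p = 4.81e-05). Its WT mean of 4.46 lay below 4.58, the 25th percentile of the mean levels of all genes.

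The other members of the RIG-I family differed less. Dhx58, which encodes LGP2, a regulator of RIG-I and MDA5, measured 7.10, 7.15 and 6.97 in KO and 6.43, 6.04 and 5.41 in WT (difference 1.12, SE 0.239, limma adjusted p = 0.0447). The KO values were close together and the WT values spread over 1 log2 unit. This call was lost when any 1 array other than WT replicate 1 was left out (highest adjusted p 0.163). Ifih1, which encodes MDA5, the sensor of long double-stranded RNA, had 8.73, 8.31 and 7.89 in KO and 7.42, 7.43 and 7.53 in WT. Its groups did not overlap, but its difference of 0.85 did not pass (adjusted p = 0.065). Without KO replicate 1 or 3 it passed, at adjusted p of 0.0499 and 0.0279.

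Zbp1, a sensor of Z-form nucleic acids that can start necroptosis, measured 8.48, 8.39 and 8.32 in KO and 7.19, 6.31 and 7.02 in WT. It rose 2.94-fold (difference 1.55, SE 0.221, limma adjusted p = 0.00852), with no overlap between the groups. Helz2, a helicase and nuclear co-activator, had 7.72, 8.18 and 8.16 in KO and 7.14, 7.01 and 7.51 in WT, a difference of 0.80 that did not pass (adjusted p = 0.0543) and passed without KO replicate 1 at adjusted p = 0.0169.

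For 3 genes of this group the KO and WT arrays overlapped. Eif2ak2 encodes PKR, the kinase that stops translation on double-stranded RNA, and measured 7.66, 7.56 and 7.40 in KO and 7.32, 7.21 and 7.61 in WT (difference 0.16, 95% interval -0.16 to 0.48, adjusted p = 0.669). Adar, the enzyme that edits adenosine to inosine in double-stranded RNA, differed by 0.28 (-0.20 to 0.76, adjusted p = 0.602). Znfx1, a helicase that binds viral RNA at mitochondria, differed by -0.06 (-0.30 to 0.18, adjusted p = 0.85). The windows of Eif2ak2 and Ddx58 both hold the ISRE core shown above, and the 95% interval of the difference was -0.16 to 0.48 for Eif2ak2 and 2.64 to 3.41 for Ddx58.

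The ISG15 system attaches the small protein ISG15 to other proteins, much as ubiquitin is attached. Of the 4 measured genes for ISG15 and ubiquitin enzymes 2 rose, and all 4 differences were positive. Of the 3 that act on ISG15 itself (Usp18, Ube2l6 and Herc6), 1 rose. Herc6, the mouse ligase for ISG15, measured 8.56, 8.44 and 8.35 in KO and 7.69, 7.58 and 7.63 in WT. Dtx3l, a ubiquitin ligase that works with PARP9, measured 8.08, 8.23 and 8.35 in KO and 7.33, 7.40 and 7.31 in WT. The arrays of each group were close together for both genes, and the rises were of similar size at 0.82 (SE 0.108, limma adjusted p = 0.00657) and 0.87 (SE 0.113, adjusted p = 0.00603).

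Usp18, the protease that removes ISG15 and also blocks signalling at IFNAR2, had 8.11, 7.69 and 8.19 in KO and 7.54, 6.81 and 7.08 in WT. Its groups did not overlap, yet the difference of 0.85 did not pass (SE 0.214, limma adjusted p = 0.0793). It passed without WT replicate 1 at adjusted p = 0.0388. Ube2l6, the conjugating enzyme for ISG15, differed by 0.42 (0.02 to 0.82, adjusted p = 0.276).

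Antiviral effectors were divided: 2 of 7 rose and 5 passed in neither direction. Isg20, an exonuclease that degrades RNA, measured 8.56, 7.92 and 8.03 in KO and 7.16, 6.76 and 7.14 in WT (difference 1.15, SE 0.197, limma adjusted p = 0.0181). Cmpk2, a mitochondrial nucleotide kinase, measured 6.18, 5.89 and 5.85 in KO and 5.19, 5.09 and 4.72 in WT (difference 0.97, SE 0.161, adjusted p = 0.0157). Neither gene had overlapping groups. The call of Isg20 was lost without KO replicate 3 or WT replicate 2 or 3 (highest adjusted p 0.0697), and that of Cmpk2 without KO replicate 2 or WT replicate 2 (highest 0.0568).

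Rsad2, which encodes viperin, an enzyme that makes a chain-terminating nucleotide, is the direct neighbour of Cmpk2 on chromosome 12. It measured 7.06, 6.96 and 7.47 in KO and 6.41, 6.81 and 6.32 in WT, without overlap. The difference of 0.65 did not pass (SE 0.183, limma adjusted p = 0.114).

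The Mx GTPases and the 2 effectors with SAM domains had overlapping groups. Mx1, a nuclear inhibitor of influenza virus that is defective in many inbred mouse strains, measured 7.14, 7.12 and 7.32 in KO and 6.89, 6.98 and 7.24 in WT (difference 0.16, 95% interval -0.15 to 0.46, adjusted p = 0.653). Mx2, its cytoplasmic relative in mice, differed by 0.28 (-0.17 to 0.72, adjusted p = 0.571). Samhd1, which lowers the pool of DNA building blocks, differed by -0.11 (-0.42 to 0.20, adjusted p = 0.783).

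Samd9l, a restriction factor of poxviruses, measured 9.71, 8.76 and 8.67 in KO and 9.57, 8.82 and 8.93 in WT. Replicate 1 was the highest array in both genotypes, and the interval of the difference, -0.78 to 0.67, was wider than for the other members outside the 5 largest rises.

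**Figure D3:**
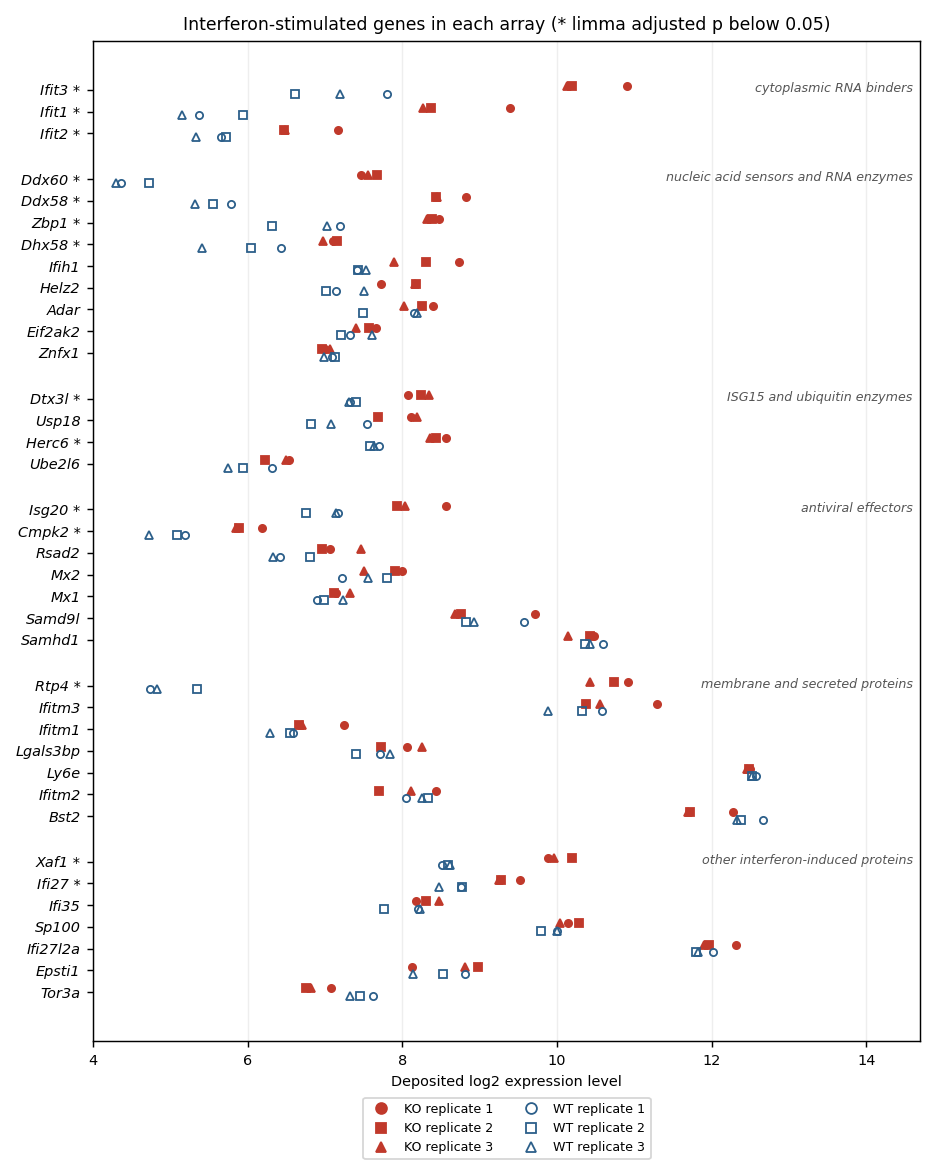
Deposited log2 levels of the 37 measured genes in each array, KO above WT within each row, grouped by role. Filled red symbols are KO arrays, open blue symbols are WT arrays, shapes give the replicate, and an asterisk marks a limma adjusted p below 0.05. In Rtp4, Ifit1, Ifit3, Ddx58 and Ddx60 the groups are separated by more than 2 log2 units, whereas in 14 genes they overlap.

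Of 7 membrane and secreted proteins 1 rose, and that 1 had the largest difference of all members. Rtp4, which brings taste and opioid receptors to the cell surface and is also an inhibitor of flaviviruses, measured 10.92, 10.74 and 10.43 in KO replicates 1 to 3, against 4.74, 5.34 and 4.82 in WT replicates 1 to 3. The lowest KO array was over 5 log2 units above the highest WT array. Means were 10.70 ± 0.25 in KO and 4.97 ± 0.32 in WT (SD, n = 3 each), a difference of 5.73 (SE 0.197, limma adjusted p = 1.73e-05). An exact permutation test gave p = 0.10, the smallest that 3 against 3 arrays allow.

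Bst2, also called tetherin or PDCA-1, holds budding virus at the membrane and is itself a surface marker of mouse pDCs. It measured 12.27, 11.72 and 11.69 in KO, against 12.66, 12.38 and 12.33 in WT. All KO arrays lay below all WT arrays, but the difference of -0.56 did not pass (SE 0.184, limma adjusted p = 0.168). It passed without KO replicate 1, with a difference of -0.75 and an adjusted p of 0.0218.

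The IFITM proteins, which block virus entry by fusion, passed in neither direction. Ifitm3 measured 11.30, 10.37 and 10.56 in KO and 10.58, 10.32 and 9.88 in WT, with KO replicate 1 above all other arrays (difference 0.48, adjusted p = 0.469). Ifitm1 differed by 0.40 (adjusted p = 0.343), and its dimmer probe set by 0.82. Ifitm2 differed by -0.13 (adjusted p = 0.831) and its other 2 probe sets by -0.22 and 0.06. The 3 genes are direct neighbours on chromosome 7 and are similar in sequence, so their probe sets can share signal.

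Ly6e, a surface protein that limits coronavirus entry, was the most even member, with 12.49, 12.48 and 12.46 in KO and 12.57, 12.52 and 12.52 in WT. The KO arrays lay below the WT arrays by a margin of under 0.1 (difference -0.06, 95% interval -0.29 to 0.16, limma adjusted p = 0.844). Lgals3bp, a secreted glycoprotein that binds galectin 3, differed by 0.36 (-0.05 to 0.77, adjusted p = 0.386), with overlapping groups.

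Among 7 other measured interferon-induced proteins 2 rose. Xaf1, a partner and inhibitor of the apoptosis inhibitor XIAP, measured 9.89, 10.19 and 9.96 in KO and 8.51, 8.59 and 8.62 in WT (difference 1.44, SE 0.119, limma adjusted p = 0.000816). Ifi27, a small hydrophobic protein, measured 9.52, 9.27 and 9.24 in KO and 8.76, 8.77 and 8.47 in WT (difference 0.68, SE 0.135, adjusted p = 0.033). Both had separate groups. The call of Ifi27 was lost when any 1 array other than KO replicate 1 was left out (highest adjusted p 0.102), and its span overlaps that of Ifi27l2a, which differed by 0.18 (-0.15 to 0.51, adjusted p = 0.634).

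Tor3a, an ATPase of the torsin family in the endoplasmic reticulum, had the lowest difference of all members. It measured 7.08, 6.75 and 6.82 in KO, against 7.62, 7.45 and 7.32 in WT, and the KO arrays all lay below the WT arrays. Its difference of -0.58 did not pass (SE 0.136, limma adjusted p = 0.0619) and passed without KO replicate 1 (-0.68, adjusted p = 0.0271). Sp100, a scaffold of nuclear bodies, averaged 10.15 ± 0.12 in KO and 9.93 ± 0.12 in WT (SD, n = 3 each), a difference of 0.22 (limma adjusted p = 0.449). Ifi35, which binds the factor NMI, differed by 0.26 (adjusted p = 0.519), and Epsti1, a protein induced in epithelial and stromal cells, by 0.15 (-0.45 to 0.74, adjusted p = 0.862).

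Across the arrays, the members as a list stood at similar heights in all 3 KO arrays. The median shift from the WT mean was 0.60, 0.45 and 0.50 in KO replicates 1 to 3, against 0.09, -0.02 and -0.05 in WT replicates 1 to 3. Over all genes the medians in KO were 0.00, -0.05 and -0.06. KO replicate 1 was the highest KO array in 24 of the 37 members (64.9%, beside 46.7% of all genes), and WT replicate 1 the highest WT array in 19 (51.4%, beside 37.2%). The median SD between arrays was 0.22 in KO and 0.23 in WT for the members, and 0.15 and 0.16 for all genes.

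Array medians ran from 5.53 to 5.56. The 9 measured pDC markers had mean levels of 11.11 to 11.26 in KO, against 11.34 to 11.51 in WT, and Siglech, which was gated on, had 12.18, 12.34 and 12.29 in KO, against 12.75, 12.52 and 12.57 in WT. Among them Ccr9 and Pacsin1 fell by 0.97 and 0.78 (limma adjusted p = 0.0221 and 0.00746), and the other pDC markers passed in neither direction. Of the 9 differences 5 were negative and 4 positive, with a median of -0.05 and the highest, 0.42, in Ly6d. Neutrophil markers were highest in KO replicate 1, with a mean level over the 8 genes of 9.13, 6.27 and 5.61 in KO replicates 1 to 3, against 6.02, 5.0 and 4.72 in WT replicates 1 to 3. All 8 differences were positive, with a median of 1.45 and the largest, 3.50, in S100a8, which measured 12.70, 8.99 and 7.48 in KO and 9.34, 4.87 and 4.44 in WT. The differences of Ltf and Ly6g turned negative without KO replicate 1 (-0.04 and -0.02). None of the 8 passed limma's threshold with all arrays, and 0 had an unadjusted p below 0.05. Without KO replicate 1, Ngp passed (difference 1.00, adjusted p = 0.0420), and with both arrays numbered 1 left out S100a8 and Ngp passed (3.58 and 1.24, adjusted p = 0.00589 and 0.00349). Macrophage and monocyte markers had mean levels of 5.56, 5.58 and 5.35 in KO, against 5.63, 6.97 and 6.88 in WT, and 1 of 8 fell (C1qb). Of these 8 differences 7 were negative and 1 positive (Ccr2), with a median of -0.97 and the lowest, -2.46, in C1qc. At an unadjusted limma p below 0.05 stood 5 of the 8, Ccr2 among them, beside 16.1% of all genes. B cell markers had mean levels of 5.12 to 5.35 in KO, against 4.74 to 4.89 in WT, and 2 of 7 rose (Cd79a and Fcer2a). T cell markers (6.39 to 6.70 in KO, 6.38 to 6.63 in WT) rose in 1 of 7 genes (Cd5). NK cell markers (4.57 to 5.02 in KO, 4.89 to 4.97 in WT) fell in 1 of 7 (Klrk1). Conventional dendritic cell markers (7.33 to 7.52 in KO, 6.82 to 6.98 in WT) rose in 2 of 6 (Itgax and Cd8a), while Sirpa differed by -0.50 and did not pass. Plasma cell markers (6.32 to 7.11 in KO, 5.48 to 6.67 in WT) rose in 1 of 4 (Sdc1), while Mzb1 differed by -0.97 and did not pass. The 2 erythroid markers passed in neither direction. Over all 58 measured markers 6 rose and 4 fell, beside 2.3% and 2.08% of all genes. In such bulk samples, a change in the cells present and a change in RNA per cell cannot be told apart, and the part of other cell types in the member values was not tested. Without KO replicate 1, 15 members were higher and 2 lower, while calls over all 19937 genes went from 459 to 780 higher and from 415 to 719 lower. The 5 largest rises all kept their calls in that fit.

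**Figure D4:**
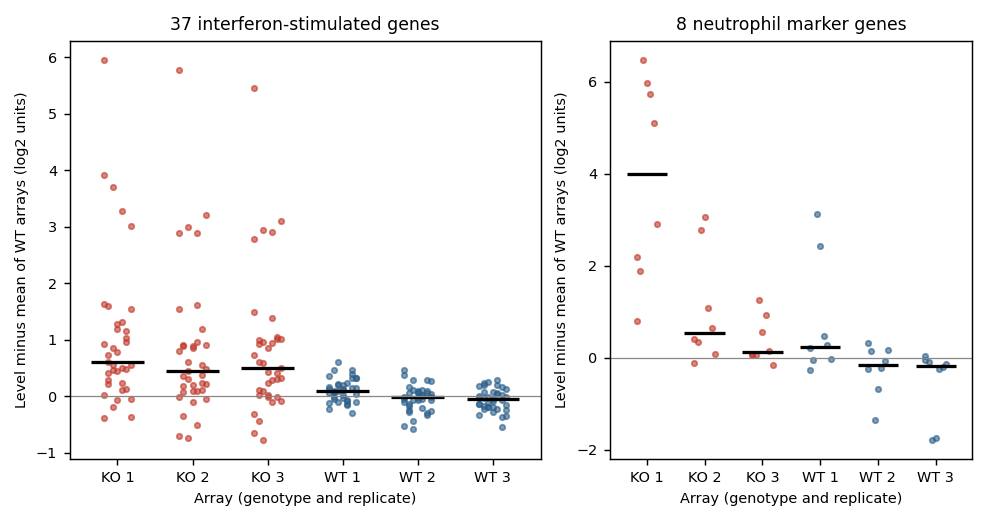
Level of each gene minus its mean over the WT arrays, in log2 units, for every array. The left panel shows the 37 interferon-stimulated genes and the right panel the 8 neutrophil markers, with black bars for medians. The medians on the left are 0.60, 0.45 and 0.50 in the KO arrays, whereas on the right KO replicate 1 stands apart at 4.0.

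The genes that make, carry or damp the interferon signal did not rise with the members as a list. Of 43 listed, 37 were measured, of which 3 rose (8.11%, beside 2.3% of all genes) and 2 fell (5.41%, beside 2.08%) by limma. Their median difference was -0.04, the same to 2 decimals as over all genes. At an unadjusted limma p below 0.05, 6 were higher (16.2%, beside 7.58% of all genes) and 8 lower (21.6%, beside 8.49%). All KO arrays lay above all WT arrays in 5 (13.5%, beside 8.71%) and below them in 10 (27%, beside 11.7%). Without KO replicate 1, 4 rose and 3 fell, beside 780 and 719 of all 19937 genes. Without KO replicate 2, KO replicate 3 or WT replicate 2, 0 of them rose, and without WT replicate 1 or 3, 1 rose. Without KO replicate 3 or WT replicate 3, 0 fell, and without KO replicate 2, WT replicate 1 or WT replicate 2, 1 fell.

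None of the 9 measured type I interferon genes passed in either direction by limma, and 0 had an unadjusted p below 0.05. Ifnb1, which encodes interferon beta, measured 3.74, 3.69 and 3.83 in KO and 3.96, 3.78 and 3.90 in WT (difference -0.13, 95% interval -0.38 to 0.12, adjusted p = 0.641). All 9 differences lay between -0.37 and 0.14. For 6 of the 9, Ifnb1 among them, the mean of both groups lay below 4.58, the 25th percentile of all genes, where a probe set may not show a change. Interferon alpha genes are close copies of each other, so their probe sets can share signal. The receptor chains Ifnar1 and Ifnar2 differed by -0.23 and -0.28 (adjusted p = 0.571 and 0.521).

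The kinases and factors below the receptor passed in neither direction. Tyk2 differed by -0.57 (95% interval -0.92 to -0.22, limma adjusted p = 0.0934), with all KO arrays below all WT arrays. Its adjusted p ran from 0.0326 to 0.389 over the alternatives. Jak1 differed by 0.23 (-0.03 to 0.49, adjusted p = 0.374), with all KO arrays above all WT arrays. Stat2 measured 8.29, 8.87 and 8.97 in KO and 8.54, 8.63 and 9.11 in WT (difference -0.04, 95% interval -0.56 to 0.47, adjusted p = 0.958). Irf9, the DNA-binding partner of STAT2, measured 7.65, 8.33 and 8.16 in KO and 7.62, 7.87 and 7.75 in WT (difference 0.30, -0.13 to 0.73, adjusted p = 0.512).

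Irf7, the factor that drives interferon alpha genes in pDCs and is itself interferon-induced, measured 8.61, 9.57 and 9.69 in KO, against 8.94, 8.82 and 9.15 in WT. KO replicate 1 was below all WT arrays and the other KO arrays above them. The difference was 0.32 over all arrays (limma adjusted p = 0.669), and 0.66 without KO replicate 1 (adjusted p = 0.0353).

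The pathway genes past the threshold had different roles. Irf2, which competes with activating IRF proteins at their sites, measured 9.54, 9.71 and 9.78 in KO and 9.14, 8.79 and 8.91 in WT (difference 0.73, limma adjusted p = 0.0218). Socs3, a feedback inhibitor of JAK kinases, measured 9.19, 9.76 and 9.70 in KO and 8.35, 8.56 and 8.78 in WT (0.99, adjusted p = 0.0267). Cgas, the sensor of cytosolic DNA, measured 4.98, 4.79 and 4.93 in KO and 4.15, 4.26 and 4.39 in WT (0.64, adjusted p = 0.0232). The WT mean of Cgas, 4.27, lay below the 25th percentile of 4.58, as that of Ddx60 did.

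In the other direction, Irf5, a factor downstream of Toll-like receptors, fell by 0.99, and Tlr7, an endosomal sensor of viral RNA, fell by 0.60 (limma adjusted p = 0.0149 and 0.0484). Irf5 measured 7.32, 7.87 and 7.49 in KO, against 8.55, 8.42 and 8.70 in WT, and Tlr7 9.80, 9.39 and 9.61 in KO, against 10.25, 10.14 and 10.20 in WT. Every one of these 5 calls was lost without KO replicate 3 or, for Socs3, Tlr7, Irf2 and Cgas, also without KO replicate 2 or WT replicate 2. Further losses were those of Irf5, Irf2, Socs3 and Tlr7 without WT replicate 3 and of Socs3, Tlr7 and Cgas without WT replicate 1. Socs3 was also lost when its probe sets were averaged (adjusted p = 0.0848), Tlr7 with a variance trend (0.0783) and Cgas with both arrays numbered 1 left out (0.0710). With single arrays left out, the highest adjusted p was 0.0667 for Irf5, 0.0987 for Irf2, 0.113 for Socs3, 0.165 for Tlr7 and 0.0989 for Cgas.

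**Figure D5:**
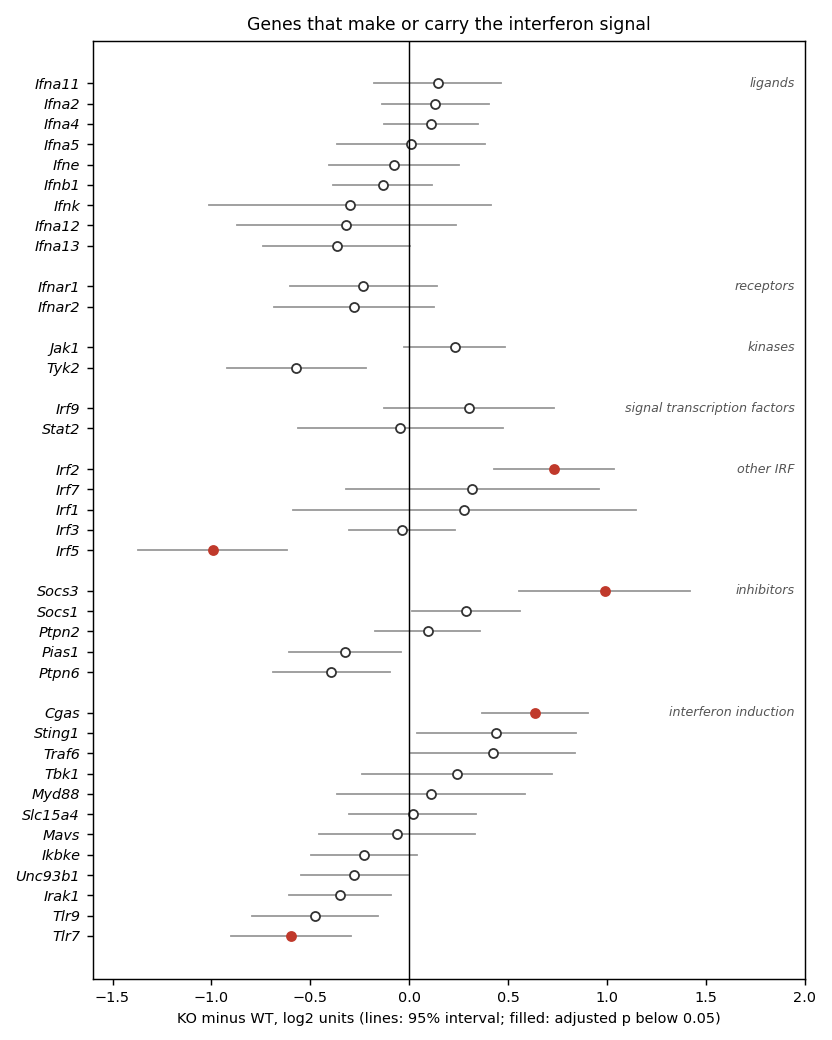
Difference between KO and WT (log2 units) of the 37 measured genes that make, carry or damp the interferon signal, grouped by role. Lines are 95% intervals and filled points passed limma's adjusted threshold. All ligands and receptors are open points between -0.37 and 0.14, and the filled points are Irf2, Irf5, Socs3, Cgas and Tlr7.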

How the data were processed

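The authors deposited log2 expression levels per probe set in a table of 34760 probe sets and 6 arrays; that they are log2 follows from their range. Per the labels' protocols, RNA was amplified with a NuGen kit and labelled with biotin. Software, background correction, summarisation and normalization were not given in the sources used here. Gene symbols came from GEO's platform annotation: 21640 had 1 symbol, 1321 several and 11799 were not listed.

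Genes were compared as KO minus WT with limma 3.58.1 (R 4.3.3), lmFit and eBayes without covariates, two-sided p-values being adjusted by Benjamini-Hochberg over 19937 genes. The fit was tested on simulated data. No dim probe set was filtered. The naming rule takes every member, each pathway gene past the threshold and, whatever their values, Irf8, Ifnar1, Ifnar2, Stat2, Irf9, Irf7, Ifnb1 and Usp18 (1 further gene is not reported here); promoters are those of the 3 largest rises and of up to 3 members with the smallest differences, among members with a window. Members shown with short stretches were picked after their values were seen, and Jak1 and Tyk2 were named outside the rule, also after their values were seen. The members, lists and alternatives were chosen with earlier results of these data known. Promoters came from RefSeq. The number of arrays limits the precision. The 16 alternatives covered normalization, filtering, probe set choice, variance model, array weights (statmod 1.5.0), a replicate block, single arrays left out, both arrays numbered 1 left out, an unequal-variance test and RefSeq-matched probe sets.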

Additional observations from a re-analysis of the deposited data

Results flagged for a closer look

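A pair of probe sets that list a member beside other genes were outside the comparison, and in both every KO array lay above every WT array. The probe set annotated to Isg15 and Gm9706 together measured 7.42, 7.62 and 7.55 in KO replicates 1 to 3, against 6.81, 7.01 and 6.75 in WT replicates 1 to 3, a difference of 0.674 log2 units (exact permutation p = 0.10, the smallest that 3 against 3 arrays allow). The signal of these 2 genes cannot be separated there. The probe set annotated to Sp100 and 4 other symbols measured 9.60, 10.21 and 10.09 in KO, against 9.58, 9.24 and 9.53 in WT, a difference of 0.5206 log2 units (exact permutation p = 0.10), beside 0.22 for the probe set of Sp100 alone.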

How the results depend on the processing

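Of the 14 members that rose, 9 kept their call in each of the 15 alternatives other than the unequal-variance test: Rtp4, Ifit1, Ifit3, Ddx58, Ddx60, Zbp1, Xaf1, Herc6 and Dtx3l. The count of members higher in KO was 9 to 15 with 1 array left out and 0 in the unequal-variance test. Members lower in KO numbered 1 with centred array medians, 2 with array weights, 2 with the replicate block, 2 with both arrays numbered 1 left out and 0 to 2 with 1 array left out (Bst2 and Tor3a). The median member difference was 0.61 when probe sets of a gene were averaged, 0.37 with array weights, 0.56 with both arrays numbered 1 left out and 0.40 to 0.67 with 1 array left out. Pathway genes numbered 0 higher and 0 lower in the unequal-variance test, 1 lower with a variance trend, and 0 to 4 higher and 0 to 3 lower with 1 array left out. Over all genes, 716 were higher and 647 lower with array weights, 741 and 641 with both arrays numbered 1 left out, 2 and 2 in the unequal-variance test, and 249 to 780 and 202 to 719 with 1 array left out. The cause of these changes was not tested. The same-numbered arrays had deviations correlated at 0.379, 0.0968 and 0.252. For arrays of different numbers the correlations ran from -0.306 to 0.200. The replicate numbers were not taken as pairs, as the labels name no batch. Whether same-numbered arrays share an effect was not tested. The replicate block gave 17 members higher and 2 lower, and 707 genes higher and 655 lower over all. It also called 2 of the 8 neutrophil markers higher, S100a8 and S100a9 (limma adjusted p = 0.000314 and 0.00126). Among the members, Irf8 and the pathway genes given with their own values, the sign turned for 4 genes that did not pass the test. With 1 array left out, Samd9l ran from -0.390 to 0.174 (0.0853 without KO replicate 2, 0.130 without KO replicate 3, 0.174 without WT replicate 1), Ifitm2 from -0.307 to 0.0613 (without KO replicate 2), Epsti1 from -0.0330 (without WT replicate 3) to 0.404, with -0.0216 without KO replicate 2, and Stat2 from -0.175 to 0.165 (without KO replicate 1), with 0.129 without WT replicate 3. Stat2 was also 0.0834 with array weights and 0.0547 with both arrays numbered 1 left out. Of the neutrophil markers, Ltf and Ly6g turned to -0.0415 and -0.0191 without KO replicate 1. Ltf was also -0.0521 with both arrays numbered 1 left out.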
